A study of Mus musculus with 12 samples.

Results

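The 47 genes described here act in the DNA damage response and in DNA repair. They were chosen by symbol from 24421 genes counted in each library, and all 47 passed the filter on low counts that left 12878 genes for testing. By role they were 16 genes of homologous recombination, 10 Fanconi genes, 10 genes of damage sensing and checkpoint signalling, 3 of mismatch repair, 3 of base excision and single-strand break repair, and 5 of end joining. Their RNA was measured by sequencing in B220+ splenocytes, spleen cells that carry the B cell form of the surface protein CD45, from 12 mice aged 4 to 5 weeks. There were 3 individual mice in each of 4 genotype groups, called here Max WT, Max KO, EuMyc Max WT and EuMyc Max KO. The EuMyc transgene places Myc under an immunoglobulin heavy chain enhancer, active in B lineage cells, and the series describes transgenic B220+ cells at this age as premalignant. Max KO mice carry a conditional knockout of Max, the protein with which MYC pairs to bind DNA, and the Cre driver that removes it is not given in the sources used here. The comparisons ask what Max loss and the transgene each did to these genes, and how far the transgene's effect needed Max.

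Cells repair DNA by several routes that divide the work by type of lesion. Homologous recombination copies an intact sister chromatid to mend a broken one and works mainly in S and G2 phase, and the Fanconi proteins feed crosslinked DNA into it. End joining ligates broken ends directly through the cell cycle, and developing B cells depend on it to complete V(D)J recombination. Mismatch repair corrects replication errors, base excision repair removes damaged or misplaced bases such as uracil, and the kinases ATM and ATR with their effectors halt the cycle while repair proceeds.

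Reads counted in genes numbered 14973332 to 21671601 per library, and the member with the fewest reads in any library had 13. Max reads over the whole gene gave 108 to 139 CPM in Max WT and 99.8 to 102 in Max KO. CPM, a gene's reads scaled to a common library size by TMM factors, is the scale of all levels here unless stated otherwise. The deleted part of Max is not given in the sources used here, so a count over the whole gene is no check of the labels. Below, Max loss, without Max and similar words refer to the Max KO labels, and how completely Max was lost was not tested. The Myc transcript was between 96.0 and 115 CPM in Max WT libraries and between 119.8 and 136 in Max KO libraries. It was between 975 and 1049 in EuMyc Max WT but only between 487 and 565 in EuMyc Max KO, so the EuMyc groups had different Myc levels with and without Max. Ptprc, which encodes B220, was at 2074 to 2135 CPM in Max WT and 517 to 636 in EuMyc Max WT, a log2 fold change of -1.85 (SE 0.0934, adjusted p = 2.48e-09), and at 1618 to 1988 in EuMyc Max KO. Summed pro-B and pre-B cell markers, 9 genes, ran from 105 to 176 CPM in the other 3 groups and from 758 to 824 in EuMyc Max WT, where 6 summed mature B cell markers were at 408 to 585 CPM against 2670 to 4786 elsewhere. Summed markers of some other cells were lower in EuMyc Max WT than in the other 3 groups. T cell markers (8 genes) were at 9.62 to 14.4 CPM against 47.4 to 88.5, and NK cell markers (6 genes) at 3.24 to 8.78 against 17.9 to 50.9. Monocyte and macrophage markers (8 genes) were at 614 to 733 against 1269 to 3628. Within that list Itgam went the other way, at a log2 fold change of 0.77 against Max WT, where 6 of the 8 genes were called lower. Summed neutrophil markers, 7 genes, were not lower than in Max WT, at 9.25 to 14.6 CPM against 3.16 to 11.9. Summed erythroid markers, 8 genes, were between 64.6 and 291 CPM in Max WT and between 146 and 426 in Max KO. They were between 325 and 418 in EuMyc Max WT and between 977 and 5520 in EuMyc Max KO. Sex was read from Xist and Y-linked counts: all 3 EuMyc Max WT mice were male, while each other group held 1 male and 2 females. In bulk samples such as these, fewer cells of a type and less RNA per cell cannot be told apart, and the part of cell type, Myc level and sex in the results was not tested beyond the fits with a sex term.

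In EuMyc Max WT cells most of these repair genes, a list chosen with earlier results of these data known, rose. Of the 47 members, 40 were higher and 2 lower than in Max WT (edgeR's quasi-likelihood test, Benjamini-Hochberg adjusted p under 0.05 over all 12878 genes). Among all genes 36.7% were called higher and 34.9% lower in the same comparison, so calls were frequent, but the direction among the members was mostly upward. The members' median log2 fold change was 1.15, against 0.01 over all genes tested. In 43 members all 3 EuMyc Max WT libraries lay above all 3 Max WT libraries, in 2 they lay below, and in 2 the groups overlapped. Over all genes these shares were 39.7% above and 37.6% below. With sex as a term in the fit the counts were also 40 higher and 2 lower, but Fancb and Fancf lost their calls (adjusted p = 0.0710 and 0.0518) and Fance and Nbn gained one (0.0219 and 0.0321).

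With the transgene present, Max loss moved most members the other way, and 39 of the 40 that were higher above were lower here. Between EuMyc Max KO and EuMyc Max WT, 40 members were lower and 3 higher, with a median of -1.02. The calls over all genes were 73.7% in either direction, 36.1% lower and 37.6% higher, with a median of 0.03. In 42 members all EuMyc Max KO libraries lay below all EuMyc Max WT libraries and in 2 they lay above, where 37.9% and 38% of all genes did so. This comparison shares the EuMyc Max WT libraries with the previous one, so the values of both are set side by side below and not counted as separate support. Between EuMyc Max KO and Max KO, which shares no library with the first comparison, 19 members were higher and 1 lower, where 10.7% and 3.69% of all genes were called, and the median was 0.21. Max loss without the transgene called only 7 members, 2 higher and 5 lower, where 7.27% and 7.74% of all genes were called, with a median of -0.06. The 7 of 47 members are near the 15% of all genes called in either direction.

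**Figure D1:**
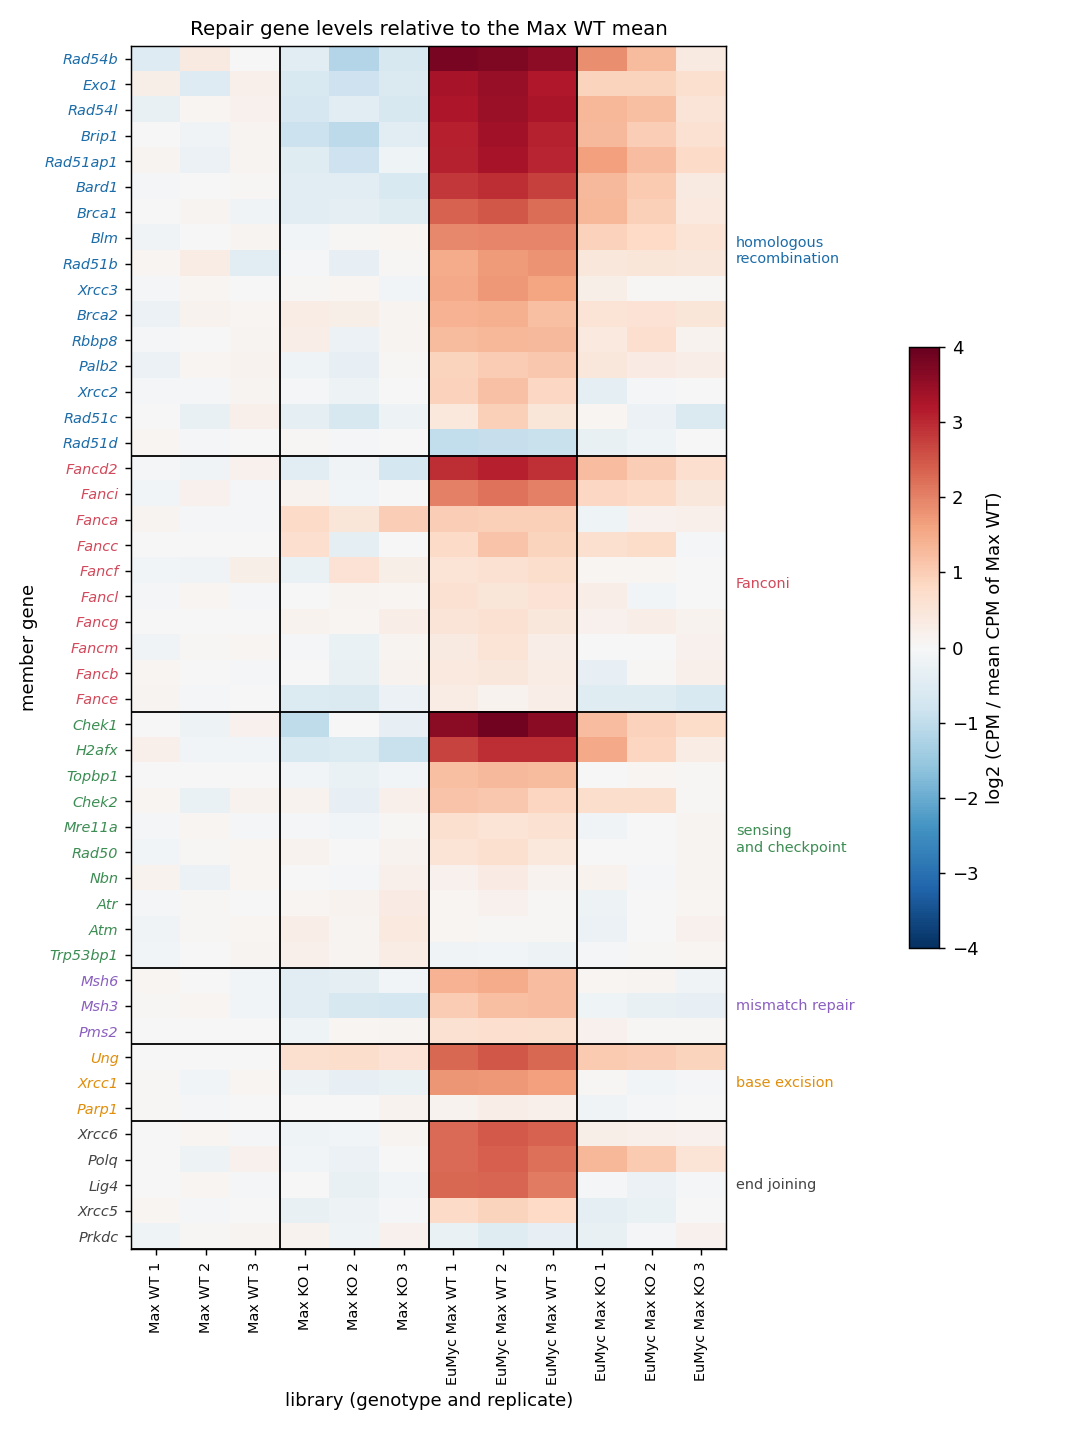
Heat map of the 47 members (rows, grouped by role) in the 12 libraries (columns), with colour giving log2 of a library's CPM over the mean CPM of Max WT, from blue for lower to red for higher. The 3 EuMyc Max WT columns are red for most rows, with Rad51d and Prkdc blue, and the EuMyc Max KO columns are paler, palest in replicate 3 for genes such as Rad54b and H2afx.

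Because many members moved together, their promoters were read for letters bound by factors of the cell cycle and of MYC. RefSeq promoters, from 250 bases before to 50 after a start on GRCm38.p6, were held for 37 of the 47 members. The letters TTTGGCGC or TTTCCCGC, core sequences of E2F sites, were found on either strand in the windows of 8 members, 21.6% of the 37, against 3.45% of tested genes with a window and 1.8% of all 27025 genes with one. CACGTG, the E-box letters to which MYC and MAX bind, were in 2 windows (Parp1 and Xrcc5, 5.41%, against 11.8% of tested genes). TTTGAA, the CHR letters of genes expressed in G2 and mitosis, were in 3 windows (8.11% against 14.4%). None of these letter sets contains another, and a match is a description of the window, not a shown binding site. In windows from 150 before to 50 after the start the counts were 4, 1 and 2 members. These were 10.8%, 2.70% and 5.41% of the 37, against 2.51%, 9.27% and 8.40% of tested genes.

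The matches with the E2F letters are shown because, of the letters searched, these were more frequent in the members' windows than in those of tested genes. That of Msh3 is not shown here. Each is read 5′ to 3′ on the strand of the gene, on GRCm38.p6 (mm10), with the letters searched for in capitals, as TTTCCCGC or in the reverse orientation GCGGGAAA. The Brca2, Chek2 and Bard1 stretches lie outside annotated exons of GENCODE vM21, and the other 4 overlap an annotated exon of the gene or of a neighbour.
Bard1, chr1:71103163-71103192, minus strand: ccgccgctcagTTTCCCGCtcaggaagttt
Brca2, chr5:150522417-150522496, plus strand: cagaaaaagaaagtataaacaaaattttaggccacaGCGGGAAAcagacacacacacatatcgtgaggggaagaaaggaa
Chek2, chr5:110839795-110839874, plus strand: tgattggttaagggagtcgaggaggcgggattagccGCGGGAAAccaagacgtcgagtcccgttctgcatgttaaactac
Fancg, chr4:43010335-43010364, minus strand: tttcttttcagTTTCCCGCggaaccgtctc
Msh6, chr17:87975054-87975083, plus strand: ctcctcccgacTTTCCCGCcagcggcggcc
Rad51c, chr11:87404941-87404970, minus strand: cccccgcgaggGCGGGAAAagcaaggggtc
Xrcc6, chr15:82016312-82016341, plus strand: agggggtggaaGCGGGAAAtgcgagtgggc
All 8 genes with a match were higher in EuMyc Max WT than in Max WT, by log2 fold changes from 0.53 (Fancg) to 2.84 (Bard1). So were 40 of all 47 members, and the direction does not set these 8 apart. The members with the largest rise, Rad54b and Chek1, are not among them, and Rad54b had no window in the table.

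Homologous recombination held 1 of the 2 members that fell and most of those with the largest rises. Gene positions below are those of GENCODE vM21 on mm10. With the transgene, 15 of its 16 genes were higher than in Max WT and Rad51d was lower, with a median log2 fold change of 1.8. Without Max, 9 of the 16 remained higher in transgenic cells than in Max KO cells and none was lower, with a median of 0.66. The DNA translocases Rad54b and Rad54l, which remodel recombination intermediates, were among those that rose most. Rad54b (chr4:11558922-11615805, plus strand) measured 1.32, 2.39 and 1.91 CPM in Max WT, 1.36, 0.831 and 1.20 in Max KO, 26.0, 24.9 and 22.2 in EuMyc Max WT, and 6.82, 4.49 and 2.39 in EuMyc Max KO. Per kilobase of its full exon length it had the lowest level of all members in Max WT. All EuMyc Max WT libraries were far above every other library, and the EuMyc Max KO libraries differed among themselves while staying above Max KO. Its log2 fold change was 3.70 (SE 0.332) with the transgene and Max (adjusted p = 5.61e-07), -2.42 (SE 0.302) for Max loss in transgenic cells (adjusted p = 1.25e-05) and 2.0 (SE 0.357) for the transgene without Max (adjusted p = 0.00318). The counted gene Fsbp overlaps 35.8% of the exon bases of Rad54b on the same strand. Reads there may have been set aside as ambiguous, so the level of Rad54b may be understated. Rad54l (chr4:116094264-116123690, minus strand) measured 5.56, 7.22 and 7.62 CPM in Max WT, 4.29, 5.05 and 4.34 in Max KO, 63.8, 75.2 and 65.1 in EuMyc Max WT, and 17.1, 15.5 and 9.67 in EuMyc Max KO. It too was highest in EuMyc Max WT without overlap, with log2 fold changes of 3.32, -2.27 and 1.63 in the same order.

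Exo1, the exonuclease that extends resected ends, measured 6.59, 3.92 and 6.43 CPM in Max WT, 3.67, 3.20 and 3.77 in Max KO, 55.8, 62.6 and 52.4 in EuMyc Max WT, and 10.5, 10.4 and 8.89 in EuMyc Max KO. Its rise of 3.33 (SE 0.167) with the transgene (adjusted p = 2.43e-09) was followed by a difference of -2.52 (SE 0.159) when Max was absent (adjusted p = 1.85e-08), which left it above Max KO by 1.48 (SE 0.175) (adjusted p = 0.000431). The 3 EuMyc Max KO libraries were close to each other for this gene and did not overlap any other group. Brip1, the helicase that binds BRCA1, and Rad51ap1, which helps the recombinase pair strands, followed the same course. Brip1 measured 5.56, 5.06 and 6.02 CPM in Max WT, 3.05, 2.68 and 4.06 in Max KO, 47.3, 56.3 and 47.3 in EuMyc Max WT, and 13.7, 11.02 and 8.47 in EuMyc Max KO, with log2 fold changes of 3.18, -2.19 and 1.75. The values of Rad51ap1 in those comparisons were 3.14, -1.89 and 1.72.

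Brca1 and its ubiquitin ligase partner Bard1, which steer breaks toward recombination, rose 5.16-fold and 7.16-fold with the transgene. Brca1 (chr11:101488764-101551955, minus strand) measured 20.4, 22.2 and 18.6 CPM in Max WT, 14.9, 16.0 and 14.5 in Max KO, 105, 115 and 96.0 in EuMyc Max WT, and 51.7, 39.3 and 26.7 in EuMyc Max KO. Its log2 fold change was 2.37 (SE 0.192) with the transgene and Max (adjusted p = 5.28e-07), and 1.38 (SE 0.193) without Max (adjusted p = 0.00112). The EuMyc Max KO libraries spread from near the Max WT level in replicate 3 to well above it in replicate 1. Bard1 measured 7.39, 7.62 and 7.98 CPM in Max WT, 5.76, 5.56 and 5.03 in Max KO, 54.6, 59.3 and 50.8 in EuMyc Max WT, and 18.8, 15.7 and 9.88 in EuMyc Max KO, with a log2 fold change of 2.84 (SE 0.184) and 1.44 (SE 0.188) in those comparisons. Both genes therefore kept part of the rise in EuMyc Max KO. Blm, the helicase that dissolves joined recombination intermediates, kept a rise of 0.76 (SE 0.0991) without Max (adjusted p = 0.000554) against 1.94 (SE 0.0999) with it.

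The recombination genes that rose less were those whose transgene difference mostly did not pass the test without Max. Brca2, which loads the recombinase onto resected DNA, measured 17.5, 22.7 and 22.0 CPM in Max WT, 25.7, 24.5 and 22.3 in Max KO, 54.2, 55.4 and 48.1 in EuMyc Max WT, and 30.5, 30.6 and 29.3 in EuMyc Max KO, and rose by 1.34 (SE 0.1) with Max (adjusted p = 7.11e-08). Its difference without Max was 0.32 (SE 0.0996), with an adjusted p of 0.0514, and it passed the test with DESeq2 (0.0335), with RLE size factors (0.0479) and without Max WT replicate 1 (0.0222) or EuMyc Max KO replicate 3 (0.0459). Palb2, which bridges BRCA1 and BRCA2, rose by 0.99 (SE 0.119) and, without Max, by 0.49 (SE 0.12) (adjusted p = 0.018). Xrcc3, a paralogue of the recombinase, measured 10.4, 11.3 and 10.7 CPM in Max WT, 11.1, 11.3 and 9.94 in Max KO, 31.0, 35.9 and 32.1 in EuMyc Max WT, and 12.6, 11.02 and 11.02 in EuMyc Max KO. EuMyc Max KO overlapped Max KO for Xrcc3, and its log2 fold change was 1.61 (SE 0.102) with Max and 0.10 (SE 0.104) without it (adjusted p = 0.549). Xrcc2, a paralogue of the same family, gave 0.98 (SE 0.133) and -0.07 (SE 0.135), and Rbbp8, which starts end resection, gave 1.30 (SE 0.133) and 0.36 (SE 0.133). The last value passed the test with a sex term (adjusted p = 0.0404) and without EuMyc Max KO replicate 3 (0.0154). Rad51b rose by 1.67 (SE 0.222), and Rad51c by 0.64 (SE 0.213) (adjusted p = 0.0161), a call lost without Max WT replicate 2 (adjusted p = 0.0722) or EuMyc Max WT replicate 2 (adjusted p = 0.0903).

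Rad51d, another paralogue of the recombinase, went the opposite way. Rad51d (chr11:82876434-82890614, minus strand) measured 47.5, 43.6 and 44.3 CPM in Max WT, 46.6, 43.9 and 45.4 in Max KO, 23.0, 24.0 and 24.2 in EuMyc Max WT, and 37.1, 39.7 and 46.1 in EuMyc Max KO. All EuMyc Max WT libraries lay below every other library, and the remaining 3 groups overlapped. Its log2 fold change was -0.93 (SE 0.0823) with the transgene and Max (adjusted p = 3.78e-07), 0.79 (SE 0.0822) for Max loss in transgenic cells (adjusted p = 1.86e-06), and -0.15 (SE 0.0808) for the transgene without Max (adjusted p = 0.246). The first 2 of these passed the test whichever library was left out. The last was -0.24 and passed the test without EuMyc Max KO replicate 3 (adjusted p = 0.0422).

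**Figure D2:**
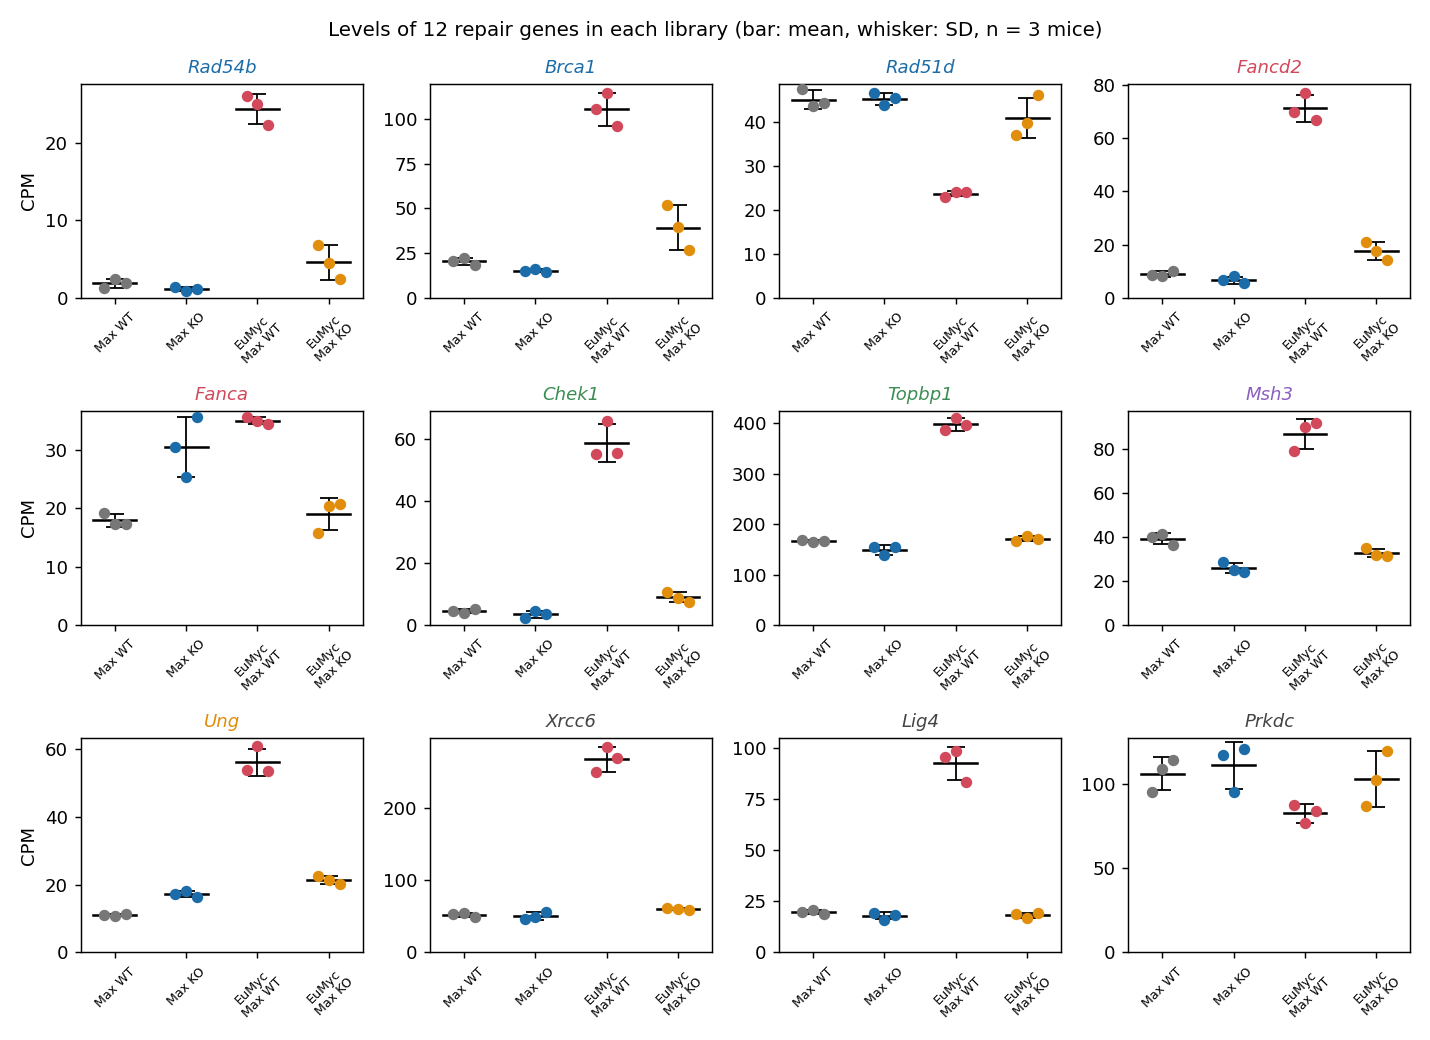
Levels of 12 members in CPM (vertical axes, each starting at 0), with a point for each library, a bar for the mean and a whisker for the SD of 3 mice in each genotype. EuMyc Max WT stands highest for most panels, for example Lig4 at 83.4 to 98.5 CPM against 16.0 to 20.7 elsewhere, while Rad51d is lowest there at 23.0 to 24.2 CPM and Fanca is raised in Max KO.

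In the Fanconi group 9 of 10 genes were higher with the transgene, with a smaller median of 0.59, and 9 of 10 were lower when Max was then lost. The clamp proteins stood apart from the core complex. Fancd2 (chr6:113531682-113597017, plus strand), whose ubiquitination marks activation of the pathway, measured 8.48, 8.07 and 10.1 CPM in Max WT, 6.66, 8.05 and 5.43 in Max KO, 69.6, 76.8 and 66.8 in EuMyc Max WT, and 21.0, 17.7 and 14.1 in EuMyc Max KO. Its log2 fold change was 3.00 (SE 0.161) with the transgene (adjusted p = 4.67e-09), -2.01 (SE 0.152) on Max loss (adjusted p = 1.01e-07) and 1.39 (SE 0.164) between EuMyc Max KO and Max KO (adjusted p = 0.000431). Its clamp partner Fanci measured 10.03, 12.3 and 10.4 CPM in Max WT, 11.97, 10.1 and 10.9 in Max KO, 44.6, 49.0 and 44.0 in EuMyc Max WT, and 19.5, 18.6 and 15.1 in EuMyc Max KO, with values of 2.07, -1.37 and 0.69. For both genes the EuMyc Max KO libraries lay between the EuMyc Max WT and Max KO libraries without overlap. Antisense exons of Polg overlap 16.0% of the exon bases of Fanci, and whether the counting used strand is not given in the sources used here.

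Core complex members rose by less. Fancl, the ubiquitin ligase subunit, Fancm, the translocase that anchors the complex to DNA, and Fancg, Fancf, Fancb and Fancc rose by log2 fold changes from 0.38 (Fancb) to 0.93 (Fancc). None of these 6 was called between EuMyc Max KO and Max KO. The Fancb call was lost without Max WT replicate 2 or 3, or EuMyc Max WT replicate 1 or 2, with adjusted p from 0.0638 to 0.0892. Fance, which links the core complex to FANCD2, was the member of the group that did not pass the test with the transgene, at 0.23 (SE 0.105) (adjusted p = 0.0647), though it did with a sex term and without Max WT replicate 1 (0.0219 and 0.0486). It measured 23.9, 21.0 and 21.8 CPM in Max WT, 15.2, 14.8 and 19.1 in Max KO, 27.1, 24.5 and 26.6 in EuMyc Max WT, and 15.8, 15.7 and 14.6 in EuMyc Max KO. Both Max-deficient groups lay below both groups with Max, and Max loss gave -0.44 (SE 0.107) without the transgene (adjusted p = 0.0173) and -0.76 (SE 0.106) with it (adjusted p = 2.59e-05).

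Fanca, a core complex subunit, was like Ung in that Max loss raised it without the transgene and lowered it with the transgene. Fanca (chr8:123268300-123318576, minus strand) measured 19.3, 17.2 and 17.3 CPM in Max WT, 30.5, 25.3 and 35.6 in Max KO, 35.7, 34.9 and 34.4 in EuMyc Max WT, and 15.8, 20.4 and 20.7 in EuMyc Max KO. The Max KO and EuMyc Max WT libraries were both above Max WT, and EuMyc Max KO overlapped Max WT. Max loss raised it without the transgene, by 0.77 (SE 0.128) (adjusted p = 0.0026), and lowered it with the transgene, by -0.88 (SE 0.126) (adjusted p = 3.29e-05), and the difference between these effects was -1.65 (SE 0.18) (adjusted p = 7.65e-06). It was the only member called lower between EuMyc Max KO and Max KO, at -0.69 (SE 0.127) (adjusted p = 0.00363). Exons of Zfp276 on the other strand overlap 10.5% of its exon bases.

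Among the sensing and checkpoint genes 6 of 10 were higher with the transgene and none lower, with a median of 0.57, and the effector kinase Chek1 changed most. Chek1 (chr9:36708482-36727065, minus strand), which ATR activates at stalled replication forks, measured 4.53, 3.98 and 5.12 CPM in Max WT, 2.26, 4.54 and 3.66 in Max KO, 55.1, 66.0 and 55.5 in EuMyc Max WT, and 10.8, 8.66 and 7.54 in EuMyc Max KO. The 3 EuMyc Max WT libraries exceeded all others, and EuMyc Max KO lay above both groups without the transgene. Its log2 fold change was 3.69 (SE 0.206) (adjusted p = 7.4e-09), which is 12.9-fold, then -2.71 (SE 0.192) on Max loss (adjusted p = 6.78e-08) and 1.37 (SE 0.212) between EuMyc Max KO and Max KO (adjusted p = 0.00137). H2afx, the histone variant whose phosphorylation marks breaks, measured 62.1, 49.2 and 49.2 CPM in Max WT, 35.2, 36.2 and 28.7 in Max KO, 352, 411 and 413 in EuMyc Max WT, and 153, 97.7 and 65.8 in EuMyc Max KO. The order of the groups was the same, and the EuMyc Max KO libraries were spread more widely for H2afx than for Chek1. Its log2 fold changes were 2.87 (SE 0.27), -1.89 (SE 0.258) and 1.66 (SE 0.267) (adjusted p = 5.25e-06, 8.79e-05 and 0.00341).

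Topbp1, the activator of ATR, measured 169, 164 and 166 CPM in Max WT, 154, 139 and 155 in Max KO, 386, 411 and 397 in EuMyc Max WT, and 167, 177 and 171 in EuMyc Max KO. It rose by 1.26 (SE 0.0557) with the transgene (adjusted p = 1.06e-09), and the replicates of a group were within a narrow range. Chek2, the effector kinase of ATM, rose by 1.03 (SE 0.188) (adjusted p = 0.000301). Mre11a and Rad50, which hold and trim broken ends, rose by 0.60 (SE 0.0763) and 0.54 (SE 0.0742). Neither was called between EuMyc Max KO and Max KO. The third subunit of that complex, Nbn, gave 0.22 (SE 0.112) (adjusted p = 0.0903).

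The kinases at the head of the response did not pass the test with the transgene. Atm measured 154, 175 and 181 CPM in Max WT, 204, 182 and 222 in Max KO, 181, 175 and 174 in EuMyc Max WT, and 145, 171 and 192 in EuMyc Max KO, and Atr measured 104, 112 and 111 CPM in Max WT, 114, 119.7 and 137 in Max KO, 116, 123 and 113 in EuMyc Max WT, and 94.1, 108 and 116 in EuMyc Max KO. EuMyc Max WT overlapped Max WT for Atm, and its log2 fold change with the transgene was 0.05 (SE 0.0995) (adjusted p = 0.648), and with library totals or upper-quartile factors it took the other sign, -0.05 and -0.07. For Atr the value was 0.11 (SE 0.0833) (adjusted p = 0.25). Trp53bp1, which shields ends from resection, measured 92.3, 99.7 and 109 CPM in Max WT, 117, 108 and 123 in Max KO, 91.2, 92.9 and 86.8 in EuMyc Max WT, and 94.8, 105 and 106 in EuMyc Max KO. Its difference with the transgene was -0.15 (SE 0.072) (adjusted p = 0.0762). It was -0.28 with upper-quartile factors and -0.26 with library totals (adjusted p = 0.00642 and 0.00886), and also passed the test with RLE size factors (0.0459), with the 2 groups fitted alone (0.0327) and without Max WT replicate 1 (0.0261) or Max KO replicate 3 (0.0333). EuMyc Max KO lay above EuMyc Max WT by 0.17 (SE 0.0719) (adjusted p = 0.0448). That call was lost when any of 7 single libraries was left out, with adjusted p from 0.0572 to 0.137 (Max WT replicate 2, Max KO replicate 1, each EuMyc Max WT replicate, and EuMyc Max KO replicates 2 and 3).

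All 3 mismatch repair genes rose with the transgene and fell when Max was lost in transgenic cells. Msh6, which recognises single mispaired bases, measured 71.6, 67.0 and 62.8 CPM in Max WT, 49.7, 52.3 and 62.2 in Max KO, 175, 188 and 159 in EuMyc Max WT, and 70.3, 72.7 and 60.4 in EuMyc Max KO. It rose by 1.37 (SE 0.0977) with Max (adjusted p = 4.67e-08) and was 0.31 (SE 0.0979) higher in EuMyc Max KO than in Max KO, which did not pass the test (adjusted p = 0.0529), and those groups overlapped. It did pass with DESeq2 (0.0333), without a count filter (0.0474), with a sex term (0.0496) and without Max KO replicate 3 (0.0296) or EuMyc Max KO replicate 3 (0.0107). Msh3, which recognises small loops, measured 40.2, 41.3 and 36.4 CPM in Max WT, 28.7, 25.2 and 24.0 in Max KO, 79.2, 90.1 and 91.7 in EuMyc Max WT, and 34.9, 32.0 and 31.6 in EuMyc Max KO. Each Max-deficient group lay below its counterpart with Max, by -0.60 (SE 0.0892) without the transgene (adjusted p = 0.00135) and by -1.41 (SE 0.0882) with it (adjusted p = 1.8e-08), around a transgene rise of 1.15 (SE 0.0875) (adjusted p = 8.88e-08). Pms2, the endonuclease subunit that nicks the strand to be corrected, measured 35.1, 36.1 and 35.1 CPM in Max WT, 31.3, 37.2 and 38.5 in Max KO, 53.8, 55.9 and 55.0 in EuMyc Max WT, and 40.3, 36.4 and 36.5 in EuMyc Max KO. It rose by 0.63 (SE 0.0803), less than the mismatch recognition genes, and EuMyc Max KO overlapped Max KO.

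The 3 base excision genes also rose with the transgene, by amounts that differed widely. Ung, the glycosylase that removes uracil from DNA and acts on the uracils made during antibody diversification, measured 10.9, 10.8 and 11.2 CPM in Max WT, 17.2, 18.0 and 16.4 in Max KO, 53.9, 60.8 and 53.6 in EuMyc Max WT, and 22.5, 21.5 and 20.2 in EuMyc Max KO. No groups overlapped, and their order from lowest to highest was Max WT, Max KO, EuMyc Max KO and EuMyc Max WT. Max loss alone changed it by 0.65 (SE 0.0827) (adjusted p = 0.000457) and the transgene by 2.35 (SE 0.0824) (adjusted p = 2.86e-10), while Max loss in transgenic cells gave -1.39 (SE 0.0783) (adjusted p = 7.28e-09). Xrcc1, the scaffold of single-strand break repair, measured 76.6, 69.2 and 78.1 CPM in Max WT, 65.1, 59.5 and 62.1 in Max KO, 255, 251 and 235 in EuMyc Max WT, and 77.4, 69.1 and 70.2 in EuMyc Max KO. It rose by 1.73 (SE 0.0661) with Max (adjusted p = 4.85e-10), and in EuMyc Max KO it overlapped Max WT. Parp1, the sensor of nicks and the most expressed member per length in Max WT, measured 579, 549 and 557 CPM in Max WT, 566, 550.1 and 619 in Max KO, 625, 682 and 648 in EuMyc Max WT, and 508, 548 and 553 in EuMyc Max KO. Its rise of 0.22 (SE 0.0648) (adjusted p = 0.00933) was the smallest of the 40 called, and did not pass the test with library totals (adjusted p = 0.124) or upper-quartile factors (adjusted p = 0.274) in place of TMM scaling.

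Of the 5 end joining genes 4 were higher and 1 lower with the transgene, and the median of 2.23 was the largest of the 6 roles. Lig4 (chr8:9969049-9977686, minus strand), the ligase that seals the break, measured 19.7, 20.7 and 18.6 CPM in Max WT, 19.4, 16.0 and 18.1 in Max KO, 95.7, 98.5 and 83.4 in EuMyc Max WT, and 18.7, 16.8 and 19.1 in EuMyc Max KO. The EuMyc Max WT libraries stood alone, and the other 9 libraries lay between 16.0 and 20.7 CPM. Its log2 fold change was 2.23 (SE 0.0945) with Max (adjusted p = 7.88e-10) and -2.35 (SE 0.0948) on Max loss in transgenic cells (adjusted p = 6.81e-10), and 0.03 (SE 0.0951) for the transgene without Max (adjusted p = 0.865). It was the only member with a rise above 2 log2 units that was not called in the absence of Max. Xrcc6, which encodes the Ku70 subunit that caps broken ends, measured 52.4, 54.3 and 49.3 CPM in Max WT, 45.7, 48.5 and 55.8 in Max KO, 249, 283 and 269 in EuMyc Max WT, and 60.6, 59.8 and 58.5 in EuMyc Max KO. It rose by 2.36 (SE 0.0767) with Max (adjusted p = 2.05e-10) and by 0.25 (SE 0.0753) without it (adjusted p = 0.0409). Its partner Xrcc5, which encodes Ku80, measured 45.3, 40.8 and 42.8 CPM in Max WT, 34.7, 37.5 and 42.0 in Max KO, 72.3, 80.3 and 75.2 in EuMyc Max WT, and 33.9, 35.6 and 42.8 in EuMyc Max KO, and gave 0.82 (SE 0.0963) and -0.02 (SE 0.0973) in those comparisons (adjusted p = 5.21e-06 and 0.898).

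Polq, the polymerase of end joining at short homologies, behaved more like the 9 recombination genes that were higher in EuMyc Max KO than in Max KO. It measured 12.9, 11.4 and 14.7 CPM in Max WT, 12.03, 11.1 and 12.9 in Max KO, 62.6, 67.4 and 59.9 in EuMyc Max WT, and 32.9, 27.0 and 19.1 in EuMyc Max KO. The rise was 2.28 (SE 0.167) with Max (adjusted p = 9.98e-08) and 1.13 (SE 0.167) without Max (adjusted p = 0.00115), and EuMyc Max KO lay between the EuMyc Max WT and Max KO libraries. Prkdc, the kinase that the Ku proteins recruit to ends, measured 95.0, 109 and 114 CPM in Max WT, 117, 95.2 and 121 in Max KO, 87.6, 76.5 and 83.7 in EuMyc Max WT, and 86.6, 102 and 119.6 in EuMyc Max KO. It was lower in EuMyc Max WT than in Max WT by -0.36 (SE 0.122) (adjusted p = 0.0192) and higher in EuMyc Max KO than in EuMyc Max WT by 0.31 (SE 0.122) (adjusted p = 0.0347), where 1 EuMyc Max KO library overlapped. The first call was lost without Max WT replicate 2, Max WT replicate 3 or EuMyc Max WT replicate 2 (adjusted p = 0.0554, 0.0717 and 0.0743). The second was lost without EuMyc Max WT replicate 2 or 3 or EuMyc Max KO replicate 2 or 3 (adjusted p = 0.121, 0.0686, 0.0675 and 0.144), and without the last of these the value was 0.19.

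How much of a member's rise was seen without Max differed between genes. Of the 40 members higher in EuMyc Max WT than in Max WT, 19 were also higher in EuMyc Max KO than in Max KO, 20 were not called there and Fanca was lower. The difference between the transgene's effects without and with Max, an interaction term in the same fit, was called lower in 36 members and higher in 1, with a median of -0.99. Over all genes 55.7% were called by this term, 27.9% lower and 27.8% higher, with a median of 0.02. The interaction term was called lower in all 19 members that kept a rise and in 16 of the other 21, Fanca among them. These 40 members were picked by the transgene's effect with Max, which is subtracted in this term. A lower term among them is therefore favoured by the choice and is not separate support. The largest terms were those of Chek1 at -2.32 (SE 0.292), Lig4 at -2.20 (SE 0.133), Xrcc6 at -2.11 (SE 0.106) and Ung at -2.04 (SE 0.114) (adjusted p = 2.88e-05, 1.19e-07, 4.04e-08 and 7.05e-08). Rad51d was the member with a term in the other direction, 0.78 (SE 0.115) (adjusted p = 9.14e-05). The Myc transcript itself rose by 3.26 log2 units with the transgene when Max was present and by 2.05 when it was absent, and its part in the smaller rise was not tested.

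**Figure D3:**
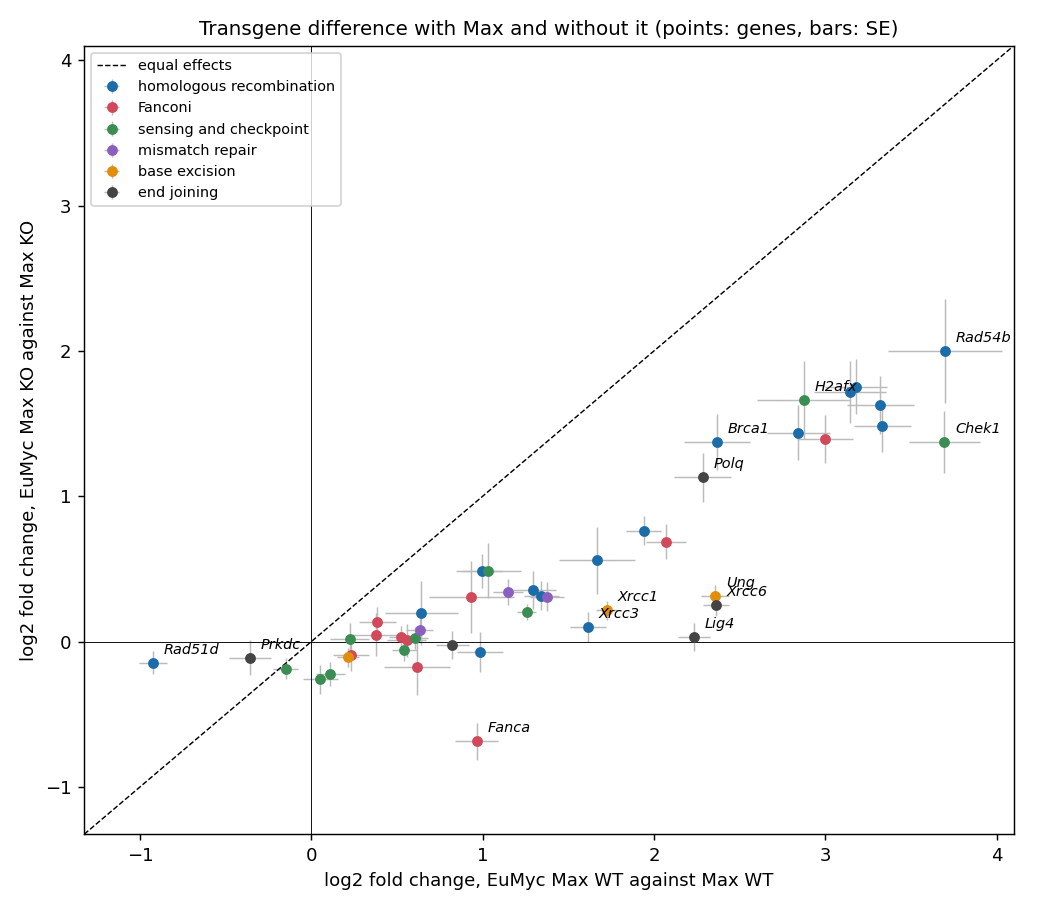
Log2 fold change of each member for the transgene with Max (horizontal axis, EuMyc Max WT against Max WT) and without Max (vertical axis, EuMyc Max KO against Max KO), with SE bars, colour by role and a dashed line of equal effects. Most points lie below the line, Rad54b and H2afx keep a large part of their rise, and Lig4, Xrcc6, Ung and Xrcc1 lie between 0.03 and 0.31 on the vertical axis with rises of 1.73 to 2.36 with Max.

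Of those 19 calls without Max, 13 held whichever library was left out. The other 6 were small and depended on single libraries. Palb2 lost its call without Max KO replicate 1 or 2 or EuMyc Max KO replicate 1 (adjusted p = 0.0631 to 0.0660). Msh3 did so without Max KO replicate 2 or 3 or EuMyc Max KO replicate 1 or 2 (0.0557 to 0.114), and Ung without Max KO replicate 1 or 3 or EuMyc Max KO replicate 1 or 2 (0.0654 to 0.0946). Topbp1, at 0.20 (SE 0.0553), lost its call without any of the 3 Max KO replicates or without EuMyc Max KO replicate 2 (0.0527 to 0.114). The call of Xrcc1, at 0.21 (SE 0.0659), was lost without Max WT replicate 1 or 3, any Max KO replicate, EuMyc Max WT replicate 1 or 2, or EuMyc Max KO replicate 1 or 2, with adjusted p up to 0.189. That of Xrcc6 was lost without any Max WT replicate, Max KO replicate 1 or 2, EuMyc Max WT replicate 3, or EuMyc Max KO replicate 1 or 2, with adjusted p up to 0.165. The genes that held were Rad54b, H2afx, Brip1, Rad51ap1, Rad54l, Exo1, Bard1, Fancd2, Brca1, Chek1, Polq, Blm and Fanci.

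The 3 EuMyc Max KO mice differed among themselves for most of the 13 genes just named and for cell cycle genes. Relative to the Max KO mean, the median log2 ratio of the 19 members called higher was 1.57 in replicate 1, 1.31 in replicate 2 and 0.82 in replicate 3, and replicate 1 was highest for 18 of the 19 and replicate 3 lowest for 17. The other 28 members had medians of -0.02, -0.03 and 0.03 in the same libraries. Both sets were split by the call made from these libraries, so the gap between the sets follows from the split. Summed over 34 cell cycle genes the log2 ratios were 2.32, 1.94 and 1.17, and summed over the erythroid markers they were 4.45, 3.87 and 1.95, so libraries with more of the rising repair RNAs also had more cell cycle and erythroid RNA. Summed neutrophil markers were at 254, 234 and 19.2 CPM. Replicates 1 and 2 were female and replicate 3 was male. The part of cell cycle state, erythroid cells, neutrophils and sex in these differences was not tested. Without EuMyc Max KO replicate 3 the count of members lower than in Max KO rose from 1 to 4, while 14 to 23 members were called higher whichever library was left out.

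**Figure D4:**
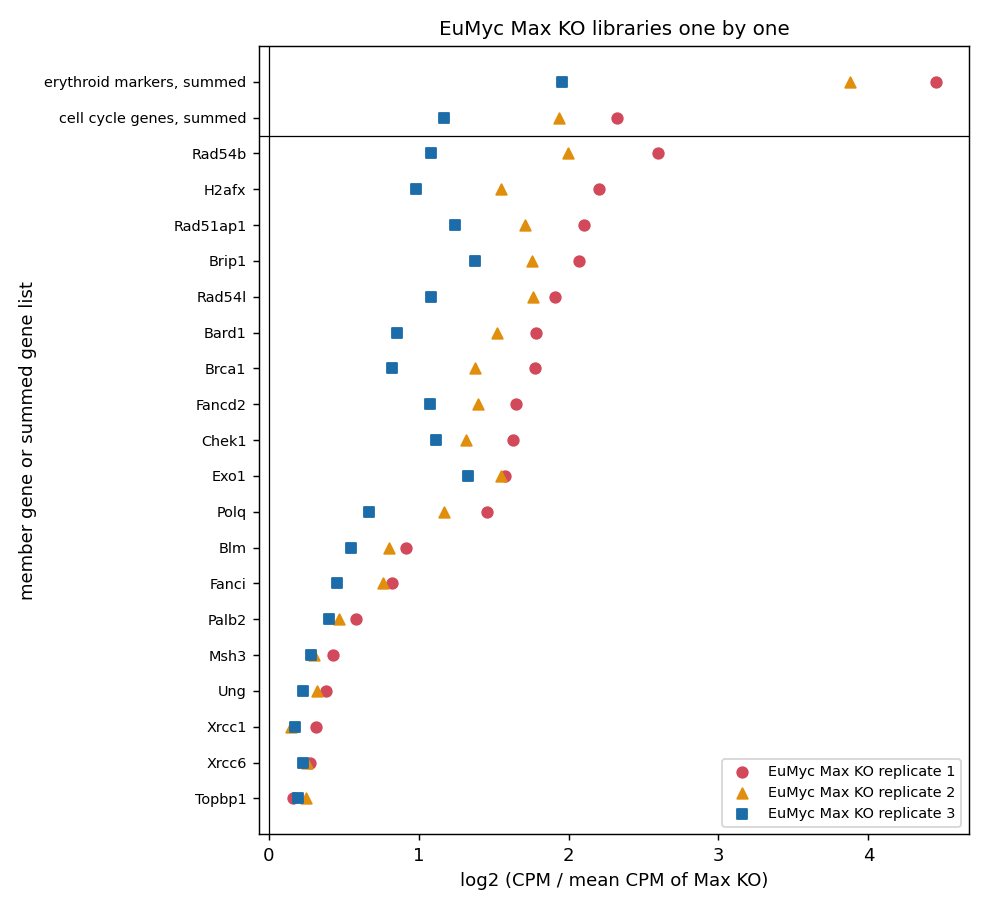
Log2 ratio of CPM in each EuMyc Max KO library to the mean CPM of Max KO (horizontal axis), for the 19 members called higher in that comparison and for 2 summed lists above the line (rows). Replicate 3 (squares) lies left of replicates 1 and 2 for Rad54b, H2afx and Brca1 and for both sums, and the 3 libraries lie close together for Xrcc6 and Topbp1.

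Max loss without the transgene changed few members and by less than 2-fold. Fanca and Ung were the 2 higher members, as described above. The 5 lower ones were Brip1 at -0.76 (SE 0.197), Exo1 at -0.67 (SE 0.182), Msh3 at -0.60 (SE 0.0892), Fance at -0.44 (SE 0.107) and Xrcc1 at -0.26 (SE 0.066) (adjusted p = 0.0238, 0.0289, 0.00135, 0.0173 and 0.0209). In 12 members all 3 Max KO libraries lay below all Max WT libraries and in 5 they lay above, where 20.1% and 18% of all genes did so. The calls of Fanca, Ung and Msh3 held whichever library was left out. Those of Brip1 and Exo1 were lost without Max WT replicate 1 or 3 or Max KO replicate 1 or 2 (adjusted p from 0.0713 to 0.0892 and from 0.0755 to 0.123). Fance lost its call without Max WT replicate 1 or Max KO replicate 1 or 2 (0.0681 to 0.0754), and Xrcc1 without Max WT replicate 1 or 3 or Max KO replicate 2 (0.0746 to 0.0790). In the comparison of EuMyc Max KO with EuMyc Max WT, where 43 of the 47 members were called, the 5 lower genes were lower too, and so were Fanca and Ung, which Max loss raised here. Of the 40 members lower there, 33 were not called here. The count of members lower here was 1 without Max WT replicate 1 or Max KO replicate 2, 2 without Max WT replicate 3 or Max KO replicate 1, and 8 and 10 without EuMyc Max KO replicate 1 and 3, which enter the estimate of spread.

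**Figure D5:**
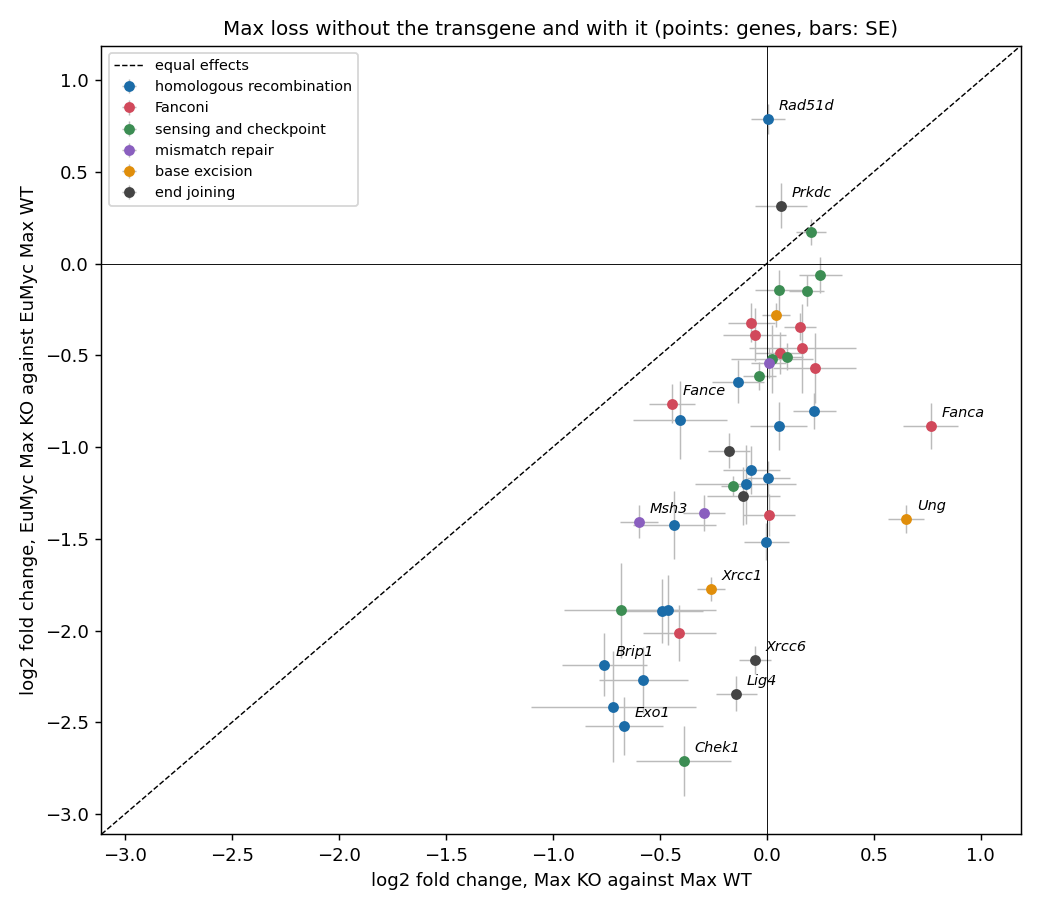
Log2 fold change of each member for Max loss without the transgene (horizontal axis, Max KO against Max WT) and with it (vertical axis, EuMyc Max KO against EuMyc Max WT), with SE bars, colour by role and a dashed line of equal effects. All points lie between -0.76 and 0.77 horizontally and most lie below 0 vertically, down to -2.71 for Chek1, while Fanca and Ung lie to the right and Rad51d and Prkdc above 0.

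Other genes of repair moved in the same direction less uniformly. Of 90 further repair genes, all tested, 55 were higher and 15 lower in EuMyc Max WT than in Max WT, with a median of 0.51, from -1.08 for Ddb2, a sensor of ultraviolet damage, to 4.49 for the glycosylase Neil3. Between EuMyc Max KO and EuMyc Max WT 11 were higher and 60 lower (median -0.56), between EuMyc Max KO and Max KO 21 and 5 (median -0.01), and between Max KO and Max WT 4 and 8 (median -0.08). In the same order of 4 comparisons, the shares of all genes called higher and lower were 36.7% and 34.9%, 37.6% and 36.1%, 10.7% and 3.69%, and 7.27% and 7.74%. The 34 cell cycle genes changed more: all 34 were higher with the transgene, with a median of 3.17, and 33 were lower on Max loss in transgenic cells, with a median of -1.69. Between EuMyc Max KO and Max KO 33 of them were still higher, with a median of 1.82, and Max loss alone lowered 15 and raised 1, with a median of -0.88. Summed cell cycle RNA was between 1401 and 1479.7 CPM in Max WT and between 936 and 1009 in Max KO, and between 10504 and 12050.1 with the transgene and Max. In EuMyc Max KO it was between 2192 and 4873. Repair genes raised without Max, such as Rad54b, Brip1 and Rad51ap1, were thus measured in libraries whose cell cycle RNA was raised too, and the share of their rise that goes with it was not tested.

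Several members share a start region with a gene read in the opposite direction. In 19 members such a neighbour was found near the start, and in EuMyc Max WT against Max WT both genes of the pair were called in 14, in the same direction in 8 and in opposite directions in 6. Prkdc and the replication helicase gene Mcm4 start 466 bases apart, and Mcm4 rose by 1.8 (SE 0.0993) while Prkdc fell. Lig4 and Abhd13 start 21 bases apart, and Abhd13 was at 66.5 ± 4.81 CPM (SD, n = 3) in Max WT and 67.5 ± 2.70 in EuMyc Max WT while Lig4 rose. Brca1 and Nbr1 start 194 bases apart and moved in opposite directions with the transgene, Nbr1 by -0.42 (SE 0.0736).

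Levels can be compared between members only per length, here as CPM per kilobase of exon. In Max WT the median over members was 3.66 CPM per kilobase, the lowest was Rad54b at 0.323 and the highest were Parp1 at 106 and H2afx at 38.6. Rad51b was next lowest at 0.496. The order of Rad54b and Rad51b is not settled, because Rad54b reads in bases shared with Fsbp may be uncounted. In EuMyc Max WT the median was 8.17, with H2afx at 283 above Parp1 at 123, and Rad51b was lowest at 1.58. In EuMyc Max KO the median was 3.91, near the 3.48 of Max KO, and Parp1 at 101 was again above H2afx at 76.4.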

How the data were processed

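RNA from B220+ splenocytes of 12 mice was sequenced, 1 library per mouse. Per the submitters' processing notes, bcl2fastq 1.8.4, TopHat2 2.1.0, HTSeq 0.6.1 and the mm10 build were used. The deposited values are raw counts of reads per gene, made by the authors and not normalized. The sources used here do not give the annotation, strand setting or read length. The 5 summary entries that name no gene were left out. Reads in genes ranged from 14973332 to 21671601 per library.

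Genes with low counts were removed with filterByExpr, leaving 12878 of 24421. One edgeR 4.0.16 quasi-likelihood model (R 4.3.3, limma 3.58.1) with TMM scaling was fitted to the 4 groups, with 8 residual degrees of freedom and a common biological coefficient of variation of 13.7%. Calls required a p-value under 0.05 after Benjamini-Hochberg adjustment over all genes tested. Standard errors were taken from the fold change and its F statistic. The exact permutation test of 3 against 3 mice cannot go below p = 0.1, so none was used. The fit was tested on simulated data.

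The members and gene lists were chosen with earlier results of these data known. Values in every library are given for the members with the largest and smallest transgene change in each role, those called lower with the transgene or higher on Max loss in transgenic cells, and those called in the interaction as space allows. Alternatives were other scaling, no count filter, DESeq2 1.42.0, fits of the compared groups alone, a replicate block and each library left out. Fits with sex as a term or in 1 sex only were chosen after seeing the data. Only between Max KO and Max WT did every library deviate most closely with its same-numbered library (r from 0.105 to 0.390 over genes). Number 2 is the male mouse in both groups. Among other same-numbered pairs, r reached 0.205 for replicate 3 of Max KO and EuMyc Max KO. It was 0.175 for replicate 3 of EuMyc Max WT and EuMyc Max KO. Gene positions and exon lengths come from GENCODE vM21 on mm10 and promoters from RefSeq on GRCm38.p6. Some values are not reported here.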

Additional observations from a re-analysis of the deposited data

Results flagged for a closer look

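In 37 members the effect of Max loss with the transgene differed from that without it, by the interaction term of edgeR's quasi-likelihood fit (adjusted p under 0.05). The values are log2 differences of the transgenic minus the non-transgenic effect, and 36 of the 37 were negative. In homologous recombination they were -0.99 for Brca1, -1.03 for Brca2, -0.51 for Palb2, -1.40 for Bard1, -1.43 for Brip1, -1.11 for Rad51b, -1.43 for Rad51ap1, -1.05 for Xrcc2, -1.51 for Xrcc3, -1.69 for Rad54l, -1.70 for Rad54b, -1.18 for Blm, -1.85 for Exo1 and -0.94 for Rbbp8. In the Fanconi group they were -1.65 for Fanca, -1.60 for Fancd2, -0.79 for Fancf, -0.50 for Fancg, -1.38 for Fanci and -0.55 for Fancl. In sensing and checkpoint signalling they were -0.58 for Mre11a, -0.60 for Rad50, -0.33 for Atr, -2.32 for Chek1, -1.06 for Topbp1 and -1.21 for H2afx. In mismatch repair they were -0.81 for Msh3, -1.07 for Msh6 and -0.55 for Pms2. In base excision they were -2.04 for Ung, -1.51 for Xrcc1 and -0.32 for Parp1. In end joining they were -1.15 for Polq, -0.84 for Xrcc5, -2.11 for Xrcc6 and -2.20 for Lig4. The exception was Rad51d, at 0.78. Fanca and Ung stood out because Max loss raised them without the transgene and lowered them with it, each change past the test. The calls of Atr, Fancf and Palb2 were lost when single libraries were left out. For Atr these were Max WT replicate 1, Max KO replicate 3, EuMyc Max WT replicate 2 and EuMyc Max KO replicate 1 (adjusted p from 0.0586 to 0.0965). For Fancf they were Max WT replicates 1 and 2, Max KO replicate 2 and EuMyc Max WT replicate 3 (0.0514 to 0.0686), and for Palb2 Max KO replicate 3 and EuMyc Max WT replicate 3 (0.0657 and 0.05003). With a sex term Atr and Fancf were not called either (adjusted p = 0.0729 and 0.0716).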

How the results depend on the processing

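No member called in any of the 5 comparisons changed direction under any alternative run. Of the 40 members higher with the transgene, 36 kept their call under every planned setting, and of the 40 lower on Max loss in transgenic cells 37 did. With the replicate block, 37 members in place of 36 were lower by the interaction term, and the block changed no other member's call. Counting error limits Rad54b most, with 13 reads in its lowest library.

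Male libraries number 1 in each group but EuMyc Max WT, which has 3, so every spread in the fits of male libraries comes from EuMyc Max WT, the lone mice are assumed to vary alike, and these fits are no replicate check within a sex. For Max KO against Max WT, members higher were 4 when the 2 groups were fitted alone and 0 in male libraries, and members lower were 8 with DESeq2, 1 in male and 2 in female libraries. All genes called were 490 in male and 1145 in female libraries, and the members' median was -0.20 in male ones. Leaving out single libraries gave 2 to 3 members higher, 1 to 10 lower, 808 to 2563 genes called and medians from -0.164 to -0.0108. For EuMyc Max WT against Max WT, the median was 1.02 with upper-quartile factors, 1.04 with library totals, 1.30 with a sex term and 1.20 in male libraries, and single libraries left out gave 1 to 3 members lower and medians from 1.11 to 1.21. For EuMyc Max KO against EuMyc Max WT, members higher were 1 without a count filter and 1 with a sex term, and 1 to 3 with single libraries left out. Its medians were -0.93 with upper-quartile factors, -0.90 with library totals, -1.13 with a sex term and -1.15 in male libraries. For EuMyc Max KO against Max KO, 7 members were higher and 0 lower in male libraries, and 2 were lower in female ones. Its genes called were 851 with the groups fitted alone, 400.0 in male libraries and 1057 to 2846 with single libraries left out, with 1 to 4 members lower. The interaction had 2 members higher in male libraries, and medians of -0.91 with upper-quartile factors, -0.91 with library totals, -1.06 with a sex term and -0.92 in male libraries, with -1.04 to -0.92 when single libraries were left out. The cause of these changes was not tested.

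The fold changes that took the other sign were all of members not called in that comparison. With the transgene, Atm was -0.0749 with upper-quartile factors, -0.0519 with library totals and -0.00043 in male libraries, and from -0.0141 (without Max WT replicate 1) to 0.0981 with single libraries left out. Atr was -0.0171 with upper-quartile factors. Between EuMyc Max KO and Max KO, male libraries gave 0.0695 for Rad51d, 0.216 for Xrcc2, -0.0371 for Xrcc3 and 0.192 for Xrcc5. With single libraries left out, Xrcc2 ranged from -0.157 to 0.0422 (without EuMyc Max KO replicate 1), Xrcc5 from -0.133 to 0.0448 (without EuMyc Max KO replicate 1) and Lig4 from -0.0428 (without Max KO replicate 2) to 0.0960. Lig4 was -0.00777 with upper-quartile factors and -0.0778 in female libraries. On Max loss in transgenic cells Fancb was -0.25 without EuMyc Max KO replicate 1 and Chek2 -0.34 without EuMyc Max KO replicate 3, and neither passed the test then (adjusted p = 0.121 and 0.0672). Without EuMyc Max WT replicate 1 or 2 these calls were lost too (adjusted p = 0.0561 and 0.0786 for Fancb, 0.0724 and 0.0539 for Chek2), Fancf lost its call with a sex term (adjusted p = 0.0688), and Fancm without EuMyc Max WT replicate 2 (adjusted p = 0.0729). Library totals shifted the median of all genes by -0.10 with the transgene and 0.12 on Max loss in transgenic cells, and upper-quartile factors by -0.13 with the transgene. The share of calls that were higher moved from 48.4% to 61.1% for Max loss alone with library totals, and from 74.4% to 63.6% between EuMyc Max KO and Max KO with upper-quartile factors.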
